A study of Mus musculus with 36 samples.

Results

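The output arm of the liver clock was followed through 9 genes in mice that lack adipose triglyceride lipase (ATGL) in white adipose tissue. The genes were Dbp, Tef, Hlf, Nfil3, Bhlhe40, Bhlhe41, Ciart (also named Gm129), Rora and Usp2. They were chosen by name, as every probe whose gene name on the array was one of these symbols, a rule that uses no measured value. All 9 were found among 37061 genes named on the array. They were read by 19 probes, of which 18 passed the filter on dim signal, and all 9 genes were among the 24097 genes tested. The series held 36 Agilent arrays read in 1 colour, 1 array for each liver sample, in 6 groups of 6 samples from male mice (C57Bl/6J). CTRL is the label of the control genotype and AAKO that of the genotype lacking ATGL in white adipose tissue. The labels used here give neither the promoter that drives the deletion nor the age of the mice. Within each genotype, 1 group was fed freely, 1 was fasted for 24 h and 1 was fed and given 3 mg/kg CL316243, a beta 3 adrenergic receptor agonist, by gavage at Zeitgeber time (ZT) 10 in 0.5% carboxymethyl cellulose. No gavage is given in the labels for the fed and fasted groups. In comparisons with those groups, CL316243 and its gavage or vehicle cannot be told apart. All mice were killed at ZT16, in the dark phase, so each value is a single time of day and not a rhythm. Both fed groups carry the label of experiment 2 and the other 4 groups that of experiment 1. A difference from fed livers and a difference between experiments cannot be told apart, whereas a genotype comparison within a condition, and fasting against CL316243, lie within 1 experiment.

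In the liver clock, the activators CLOCK and BMAL1 drive genes through E-box sequences, and their repressors feed back on them with a daily delay. DBP, TEF and HLF are activators of the PAR-bZIP family, themselves rhythmic, that bind D-box sequences in genes of detoxification and metabolism, and NFIL3 (E4BP4) is a repressor that binds the same sequences. BHLHE40 (DEC1) and BHLHE41 (DEC2) repress through E-boxes, CIART (CHRONO) represses CLOCK and BMAL1, RORA activates through RORE sequences that the REV-ERB repressors also bind, and USP2 is a rhythmic deubiquitinating enzyme.

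The promoter sequences of the genes with a canonical motif are shown as a description, and a link between motifs and changes in level was not tested. RefSeq promoters (build GRCm38.p6, 250 bases before to 50 after a transcript start) were given for 8 of the 9 genes, in 9 entries, since Tef has 2. They were searched on both strands for the E-box CACGTG, the D-box TTATGTAA or TTACGTAA, and the RORE core TAGGTCA. No match overlapped another. An E-box was found in 3 of the 8 genes (Tef, Bhlhe41 and Ciart), a RORE in 1 (Nfil3) and a D-box in none, beside 7.15%, 2.61% and 1.06% of all 32851 promoters of the same length. The Ciart entry held 3 E-boxes, which start 116, 58 and 44 bases before the transcript start, and those of the 2 Tef entries start 127 and 138 and that of Bhlhe41 153 bases before it. The Nfil3 RORE, which reads TGACCTA on the gene's strand, starts 12 bases before the start. The stretches before the gene are printed 5′ to 3′ on the gene's strand with the motifs in capitals, from chr3:95882258-95882478 (minus strand, Ciart), chr15:81802423-81802672 (plus strand, Tef), chr6:145865421-145865670 (minus strand, Bhlhe41). Only the 30 bases around the motif are printed for the second Tef entry, at chr15:81811264-81811293 (plus strand), and for Nfil3, at chr13:52981033-52981062 (minus strand).
Ciart: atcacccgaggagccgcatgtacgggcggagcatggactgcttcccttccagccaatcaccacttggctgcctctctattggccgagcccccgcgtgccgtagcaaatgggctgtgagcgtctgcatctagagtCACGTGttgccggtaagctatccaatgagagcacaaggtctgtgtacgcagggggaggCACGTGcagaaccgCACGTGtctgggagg
Tef: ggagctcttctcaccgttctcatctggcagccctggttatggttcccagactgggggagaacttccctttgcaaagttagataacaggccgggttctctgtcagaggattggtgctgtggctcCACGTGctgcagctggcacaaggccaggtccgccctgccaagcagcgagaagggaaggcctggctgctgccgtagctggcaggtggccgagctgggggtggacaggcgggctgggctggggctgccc
Bhlhe41: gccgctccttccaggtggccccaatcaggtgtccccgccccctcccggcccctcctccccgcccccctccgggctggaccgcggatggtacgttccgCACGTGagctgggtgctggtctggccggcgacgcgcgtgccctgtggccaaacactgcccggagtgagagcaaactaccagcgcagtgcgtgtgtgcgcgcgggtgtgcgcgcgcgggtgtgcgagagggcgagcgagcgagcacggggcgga
Tef, second entry: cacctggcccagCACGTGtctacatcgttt
Nfil3: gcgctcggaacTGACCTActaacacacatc
The entries of Dbp, Hlf, Rora and Usp2 held none of these letters, which says nothing of other parts of those genes. Among 15 other clock genes, entries were given for 11, of which 2 (Cry1 and Per1) held an E-box, 1 (Per3) a D-box and 1 (Arntl) a RORE.

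Each level is the log2 of the processed signal of a gene's brightest probe minus that array's 75th percentile on the same scale, so that 0 is the brightness of that percentile and 1 unit is a doubling. Between 33130 and 37200 of 56605 probes were well above background on an array, no spot was saturated, and the number of arrays limits the precision. All 9 probes used were well above background on 36 of 36 arrays, apart from that of Bhlhe41. Hepatocyte markers (Alb, Ttr, Apoa1, Cps1, Cyp2e1 and Tat) were well above background on all 36 arrays, and the log2 of their summed signal lay between 11.79 and 12.18. The sum hides changes of single markers. In fasted livers all 6 were called between genotypes, where 49.2% of all genes were called. Tat (1.16) and Cps1 (0.53) were higher in AAKO, and 4 were lower, from -0.45 for Ttr to -0.12 for Alb. The summed signal of 4 neutrophil markers (S100a8, S100a9, Ly6g and Mpo) was less even. Its log2 ran from 3.05 to 6.85 in AAKO fasted livers and from 0.44 to 6.18 in CTRL fasted livers, where 2 of the 4 (S100a8 and S100a9) were called higher in AAKO (49.2% of all genes called). The other 2 were not called, with lower means in AAKO than CTRL fasted livers (Ly6g -0.69 against -0.42, Mpo -3.28 against -3.18). Arrays are named below as high in neutrophil markers by the sum alone. The log2 sum ran from 0.54 to 5.48 in AAKO fed, 0.52 to 2.62 in CTRL fed, 1.63 to 3.40 in AAKO CL316243 and 0.02 to 2.45 in CTRL CL316243 livers, and all 4 genes were well above background on all 36 arrays. Of the arrays outside AAKO fasted, CTRL fasted replicate 2 (6.18) and AAKO fed replicates 6 (5.48) and 1 (3.93) were highest. Of the 4 stellate cell markers 2 (Reln and Dcn) were also called higher in AAKO fasted livers (49.2% of all genes called). The log2 sum, which mostly follows the bright Dcn, was 6.77 to 7.19 against 6.38 to 6.72 in CTRL fasted livers. The other 2 were not called, with means in AAKO and CTRL fasted livers of -1.28 against -0.97 (Lrat) and -0.96 against -0.98 (Col1a1). There, beside the same 49.2%, 1 of 4 endothelial markers (Stab2) was higher in AAKO, with sums of 5.33 to 5.73 against 4.74 to 5.74, and 1 of 4 cholangiocyte markers (Krt19) lower, with sums of 1.80 to 3.39 against 2.06 to 2.99. Of 5 Kupffer cell markers, 2 were lower in fasted than fed livers in CTRL (43.8% of all genes called) and 3 in AAKO (63.6% of all genes called), and 3 and 4 were lower after CL316243 than in fed livers (23.1% and 31.4% of all genes called). Their log2 sum ran from 5.12 to 6.28 in CTRL fed and 5.79 to 6.62 in AAKO fed livers, from 4.46 to 6.29 and 3.77 to 5.85 in fasted livers and from 3.88 to 5.74 and 5.07 to 5.72 after CL316243. From fed to fasted livers 3 of 4 cholangiocyte markers were lower in each genotype, beside the same 43.8% (CTRL) and 63.6% (AAKO) of all genes called. All of these genes but Epcam, on 34, were well above background on all 36 arrays. The part of these cells in the results was not tested. The 3 arrays with high neutrophil markers named below are the highest outside AAKO fasted, a choice made after seeing the data. Values without them are given for each change of a call and for some other comparisons. The AAKO fasted arrays, with neutrophil sums of 3.05 to 6.85, all stayed in. Fasted genotype comparisons without the 3 arrays thus do not show what neutrophils contribute. In a whole liver, fewer cells of a type and less RNA per cell cannot be told apart.

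The comparisons asked how loss of ATGL in fat altered the liver's response to fasting and to beta 3 stimulation. Differences were tested with limma in 1 fit of all 36 arrays with wash batch as a factor, and a gene was called at a Benjamini-Hochberg adjusted p under 0.05 over all 24097 genes. In fasted livers, 8 of the 9 genes differed between genotypes, 7 higher and 1 lower in AAKO, where 49.2% of all genes were called. In fed livers none of the 9 was called, where 0.0788% (19) of all genes were called. The lowest unadjusted p by limma were those of Ciart, Nfil3 and Dbp (0.0164, 0.0186 and 0.0403). The share of all genes with an unadjusted p that low was not counted. The log2 differences of these genes were -1.34, 0.66 and -0.72, and -0.72, 0.30 and -0.30 without the 3 arrays with high neutrophil markers. After CL316243, 4 of the 9 were called, 1 higher and 3 lower in AAKO, where 24.6% of all genes were called. The median genotype difference of the 9 was -0.20 in fed, 1.21 in fasted and -0.41 in CL316243 livers, and that of all genes tested was 0.00, -0.03 and 0.03.

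**Figure D1:**
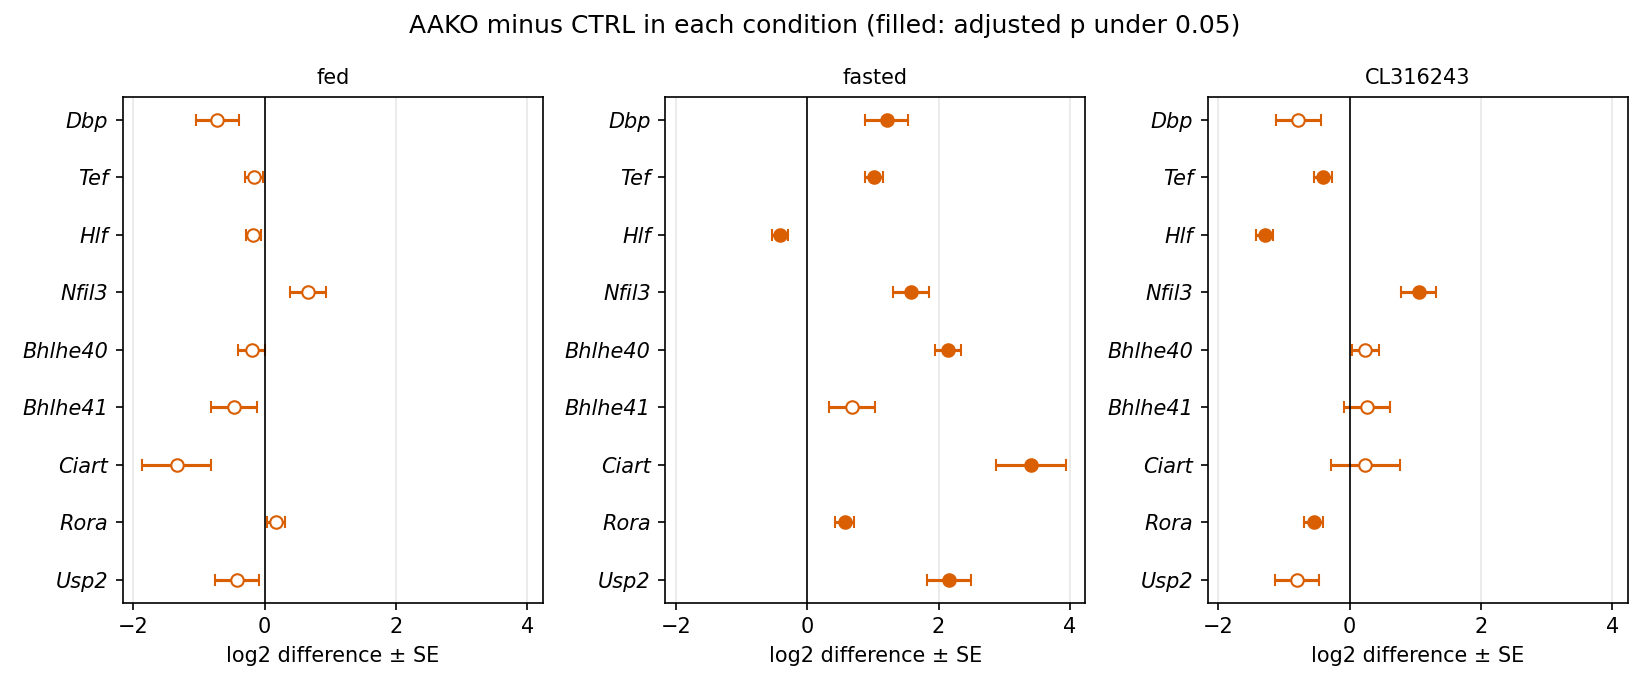
Log2 difference between AAKO and CTRL livers (points, with the SE as bars) for the 9 genes in fed, fasted and CL316243 livers, filled where the adjusted p was under 0.05. Fasted livers show 7 filled points above 0 and Hlf below it, and fed livers show no filled point.

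The genotypes also differed in how the genes responded. In CTRL livers, 7 of the 9 genes were called between fasted and fed (1 higher and 6 lower in fasted livers, 43.8% of all genes called), and in AAKO livers 4 were called (3 higher and 1 lower, 63.6% of all genes called). A test of the difference between these responses called 5 of the 9, all with a higher response in AAKO, where 33.6% of all genes were called. Fasting against CL316243, within 1 experiment, gave 7 calls in CTRL (1 higher and 6 lower in fasted livers, 37.1% of all genes called) and 7 in AAKO (5 higher and 2 lower, 60.0% of all genes called). The difference between these 2 was called for 7 genes, again all higher in AAKO, where 31.8% of all genes were called. From fed to CL316243 livers, 4 genes were called in CTRL (2 higher and 2 lower, 23.1% of all genes called) and 5 in AAKO (2 higher and 3 lower, 31.4% of all genes called), and the responses differed for 2, both lower in AAKO (10.9% of all genes called). These comparisons share groups of arrays with one another and are not independent. The counts of fasting against CL316243 and of fed to CL316243 livers in each genotype include Bhlhe41, a gene near background. Its probe was well above background on 1 of 6 CTRL fasted, 5 of 6 AAKO fasted, 4 of 6 CTRL fed and 2 of 6 AAKO fed arrays. Without CTRL fasted replicate 2, or without it and AAKO fed replicates 1 and 6, a genotype difference from fed to fasted was also called for Nfil3, Rora and Bhlhe41. The share of all genes called in those fits was not counted.

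**Figure D2:**
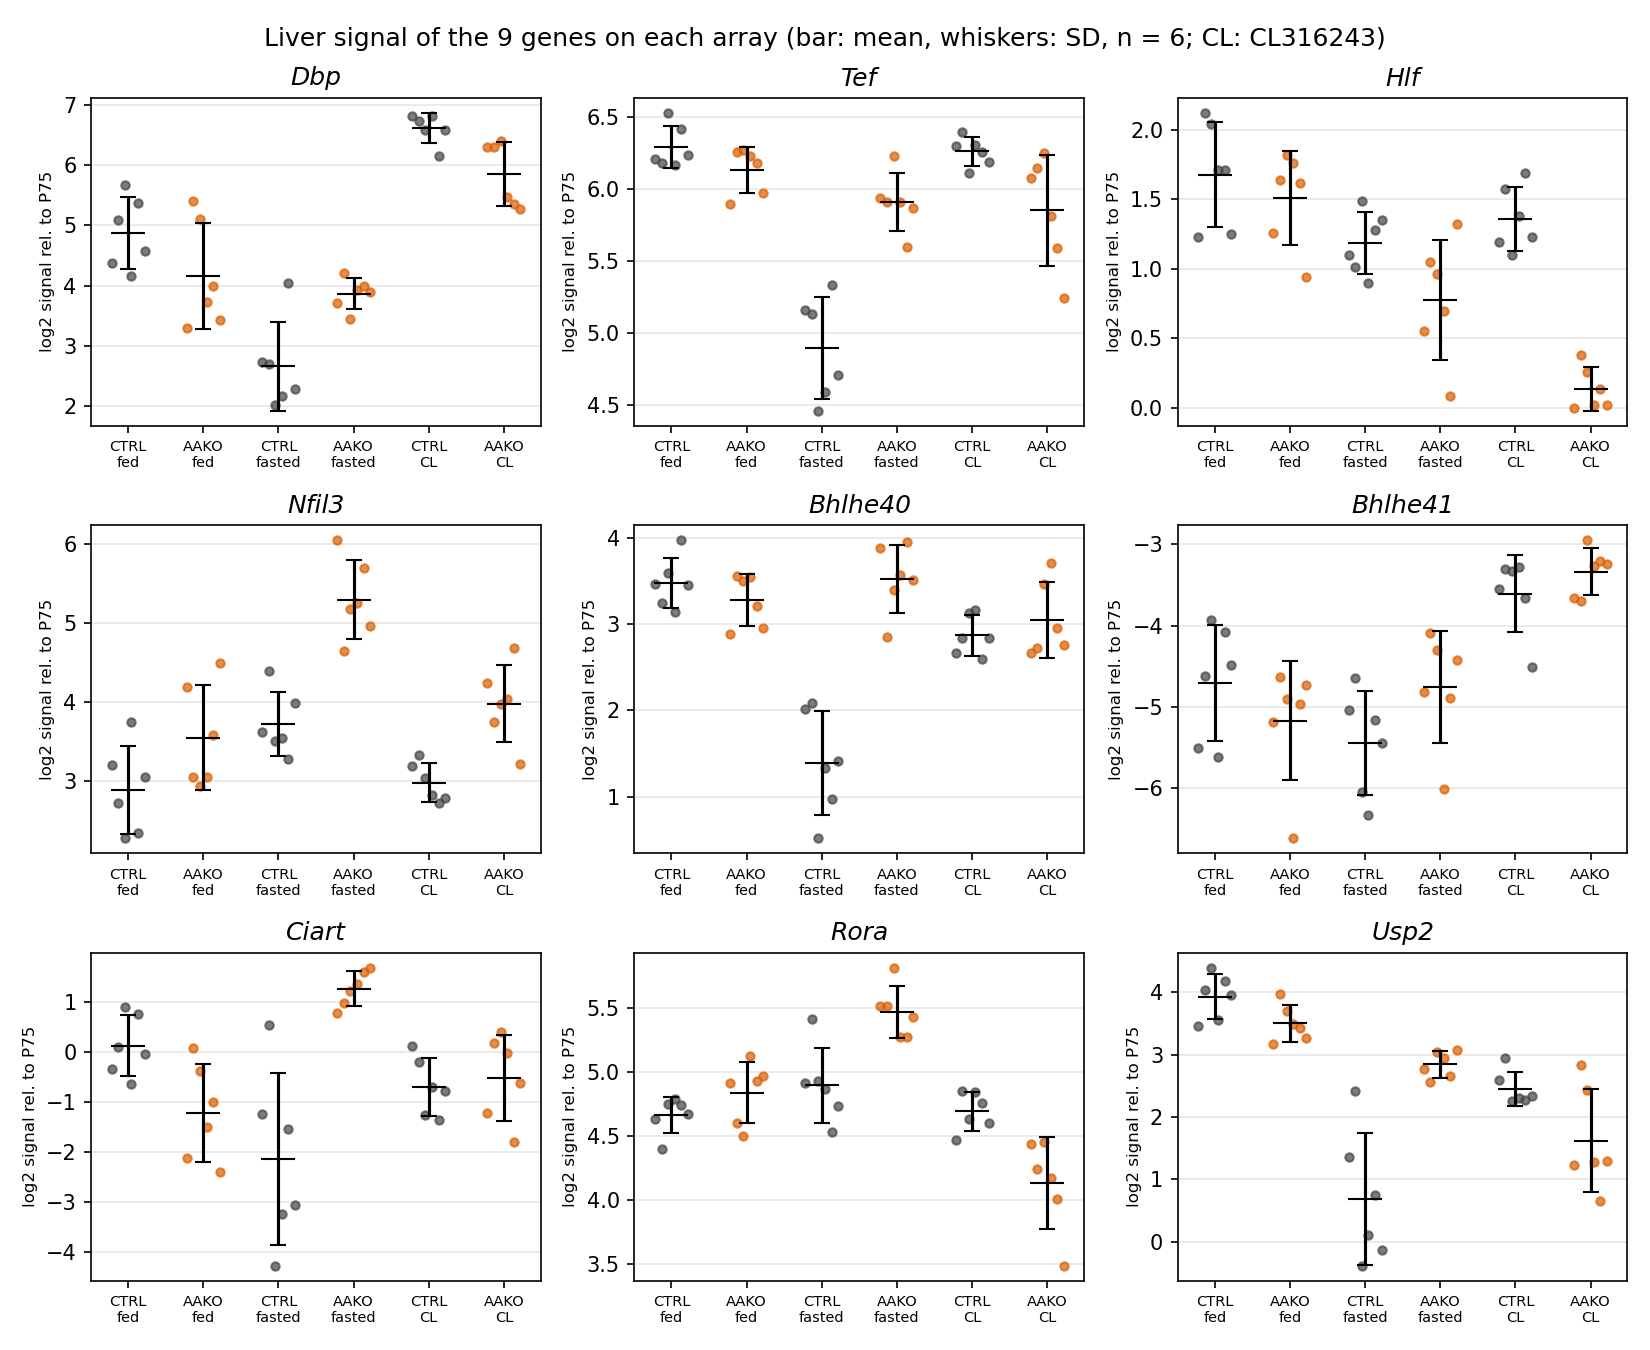
Level of each of the 9 genes on every array (points, log2 of the signal over each array's 75th percentile) in 6 groups of 6 arrays, with the mean and SD of the group. In CTRL fasted livers Tef, Bhlhe40 and Usp2 sit below every fed array of either genotype, and Hlf is lowest in AAKO CL316243 livers.

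Among the D-box activators, Dbp, the founding PAR-bZIP factor and one of the most strongly rhythmic liver transcripts, was lowest in fasted controls and highest after CL316243. Its probe lies at chr7:52965265-52965324 (plus strand, build mm9, as for all probes here). The Dbp level ran from 4.16 to 5.68 (median 4.83) in CTRL fed livers and from 3.30 to 5.40 (median 3.86) in AAKO fed livers. In fasted livers it ran from 2.02 to 4.04 (median 2.49) in CTRL and from 3.45 to 4.21 (median 3.92) in AAKO, and after CL316243 from 6.15 to 6.82 (median 6.67) in CTRL and from 5.28 to 6.40 (median 5.89) in AAKO. The fasted ranges overlapped only through CTRL fasted replicate 5, at 4.04, since the other 5 control arrays did not exceed 2.73. Dbp was 2.31-fold higher in AAKO than in CTRL fasted livers (log2 difference 1.21 ± 0.33, SE, adjusted p = 0.00319), and 1.07 and 1.35 within the first and the second wash batch, the first of which ended the call. From fed to fasted livers Dbp fell by 2.22 ± 0.33 in CTRL (adjusted p = 2.06e-06), with every fasted array below every fed array. The same difference in AAKO was -0.30 ± 0.33 (adjusted p = 0.455), and -0.71 ± 0.36 without the 3 arrays with high neutrophil markers, still not called. The genotypes' responses differed by 1.93 ± 0.47 (adjusted p = 0.00186), with 1.77 and 2.08 within the wash batches, the first of which ended the call. Without the 3 arrays the difference was 1.51 ± 0.49, still called. With CL316243 the gene moved the other way. From fed livers Dbp rose 3.34-fold in CTRL (log2 1.74 ± 0.33, adjusted p = 0.000267) and 3.20-fold in AAKO (1.68 ± 0.34, adjusted p = 0.000240). The CTRL call was lost within the first wash batch (1.59), and the genotype difference of these rises was -0.06 ± 0.47 (adjusted p = 0.963). Without the 3 arrays the rise in AAKO was 1.29 ± 0.36, still called, and the genotype difference -0.45 ± 0.48, not called. In AAKO every fasted array lay below every CL316243 array (-1.98 ± 0.34, adjusted p = 6.66e-06). The drop from CL316243 to fasted livers was larger in CTRL, by 1.99 ± 0.47 (adjusted p = 0.00159), a call lost within each wash batch (1.83 and 2.07). In the order of group means, CTRL CL316243, AAKO CL316243, CTRL fed, AAKO fed, AAKO fasted and CTRL fasted, the ranges of each pair of neighbours overlapped.

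Tef, the second PAR-bZIP activator, was lowest in the fasted controls. Its brightest probe lies at chr15:81657221-81657280 (plus strand). The Tef level ran from 4.46 to 5.33 (median 4.92) in CTRL fasted livers and from 5.60 to 6.23 (median 5.91) in AAKO fasted livers. In the fed groups it ran from 6.17 to 6.53 (median 6.23) in CTRL and from 5.90 to 6.27 (median 6.20) in AAKO, and after CL316243 from 6.11 to 6.40 (median 6.28) in CTRL and from 5.24 to 6.25 (median 5.95) in AAKO. Every AAKO fasted array lay above every CTRL fasted array, and the difference was 2.02-fold (log2 1.02 ± 0.14, adjusted p = 6.17e-07, with 1.17 and 0.86 within the 2 wash batches). Tef fell by 1.40 ± 0.14 from fed to fasted livers in CTRL (adjusted p = 2.39e-09), against -0.22 ± 0.14 in AAKO (adjusted p = 0.182). The responses differed by 1.17 ± 0.20 (adjusted p = 3.74e-05) against fed livers and by 1.43 ± 0.20 (adjusted p = 3.01e-06) against CL316243 livers, where CTRL fasted arrays also all lay below CTRL CL316243 arrays (log2 -1.37 ± 0.14, adjusted p = 7.39e-09). After CL316243 Tef was 1.33-fold lower in AAKO (log2 -0.41 ± 0.14, adjusted p = 0.0355), with overlapping ranges. That call was lost within either wash batch (-0.56 and -0.17), at the second probe (-0.38) and without CTRL CL316243 replicate 1, 2, 4 or 5 or AAKO CL316243 replicate 4, 5 or 6, with values from -0.41 to -0.29. In the order of means, CTRL fed, CTRL CL316243, AAKO fed, AAKO fasted, AAKO CL316243 and CTRL fasted, each pair of neighbours overlapped, the last because the highest CTRL fasted array (5.33) lay above the lowest AAKO CL316243 array (5.24).

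Hlf, the third PAR-bZIP activator, differed from Dbp and Tef in the direction of the fasted genotype difference, though it too fell with fasting in CTRL. It was the only one of the 9 genes called lower in AAKO in the fasted state, and the AAKO CL316243 livers were its lowest group. Its single probe lies at chr11:90201236-90201295 (minus strand). The Hlf level ran from 1.23 to 2.12 (median 1.71) in CTRL fed and from 0.94 to 1.82 (median 1.63) in AAKO fed livers, and from 0.90 to 1.49 (median 1.19) in CTRL fasted and from 0.09 to 1.32 (median 0.83) in AAKO fasted livers. After CL316243 it ran from 1.1 to 1.69 (median 1.30) in CTRL and from 0.00 to 0.38 (median 0.08) in AAKO, with no overlap. That difference was 2.45-fold (log2 -1.29 ± 0.13, adjusted p = 6.07e-09), and -1.41 and -1.03 within the 2 wash batches. In the fasted state Hlf was 1.33-fold lower in AAKO, with overlapping ranges (log2 -0.41 ± 0.12, adjusted p = 0.00722), a call that was lost without the wash batch term (-0.41) and within the first wash batch (-0.26). From fed livers, Hlf fell by 0.49 ± 0.12 with fasting in CTRL (adjusted p = 0.00173) and by 0.73 ± 0.12 in AAKO (adjusted p = 6.48e-06). The CTRL call was lost within the second wash batch (-0.40), and a difference of these responses was not called (-0.24 ± 0.18, adjusted p = 0.324). With CL316243 it fell by 1.44 ± 0.13 in AAKO (adjusted p = 4.33e-10), against -0.32 ± 0.12 in CTRL (adjusted p = 0.0654, and called without CTRL fed replicate 1 or 6, at -0.37 and -0.36). The responses differed by -1.12 ± 0.18 (adjusted p = 5.66e-05), and that call was lost within the second wash batch (-0.92). Between fasting and CL316243, Hlf was higher in fasted livers of AAKO (0.71 ± 0.13, adjusted p = 1.09e-05), while the value in CTRL was -0.17 ± 0.12 (adjusted p = 0.293), and the difference of the 2 was 0.89 ± 0.18 (adjusted p = 0.000235). The last 2 calls were lost within the second wash batch (0.31 and 0.48).

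Nfil3, the repressor that competes at D-boxes, rose with fasting in both genotypes and was highest in AAKO fasted livers. Its probe lies at chr13:53062578-53062637 (minus strand). The Nfil3 level ran from 3.28 to 4.39 (median 3.58) in CTRL fasted livers and from 4.65 to 6.05 (median 5.22) in AAKO fasted livers, with no overlap. In fed livers it ran from 2.27 to 3.74 (median 2.89) in CTRL and from 2.93 to 4.49 (median 3.31) in AAKO, and after CL316243 from 2.71 to 3.33 (median 2.93) in CTRL and from 3.21 to 4.68 (median 4.00) in AAKO. The fasted difference was 2.99-fold (log2 1.58 ± 0.27, adjusted p = 9.35e-06), with 1.34 and 1.82 within the wash batches and 1.70 ± 0.25 without the 3 arrays with high neutrophil markers. Nfil3 rose by 0.83 ± 0.27 from fed to fasted livers in CTRL (adjusted p = 0.0108), a call lost within the first wash batch (0.68), and by 1.75 ± 0.27 in AAKO (adjusted p = 8.41e-07), where every fasted array lay above every fed array. The difference of these responses, 0.92 ± 0.38, was not called (adjusted p = 0.058). It was called, at 1.01 to 1.08, without CTRL fed replicate 3 or 5, AAKO fed replicate 1 or 6, CTRL fasted replicate 2 or 6, or AAKO fasted replicate 2, and it was 1.40 ± 0.37 without the 3 arrays with high neutrophil markers. Without those arrays the change from fed to CL316243 livers in AAKO, 0.48 ± 0.27 with them (adjusted p = 0.181), was also called (0.82 ± 0.27). After CL316243 Nfil3 was 2.07-fold higher in AAKO (log2 1.05 ± 0.27, adjusted p = 0.0038, ranges overlapping), and the call was lost within each wash batch alone (1.01 and 1.00). Nfil3 was the 1 gene of the 9 called higher in fasted than in CL316243 livers of both genotypes, by 0.74 ± 0.27 in CTRL (adjusted p = 0.0268) and 1.27 ± 0.27 in AAKO (adjusted p = 0.000122). The CTRL call was lost within each wash batch (0.64 and 0.85) and without CTRL fasted replicate 2 or 6 or CTRL CL316243 replicate 6 (0.64, 0.66 and 0.67), and without the 3 arrays with high neutrophil markers (0.62). The AAKO fed arrays with the most Nfil3, replicates 6 (4.49) and 1 (4.19), were those with high neutrophil markers, and they held the lowest Dbp of their group (3.43 and 3.30).

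**Figure D3:**
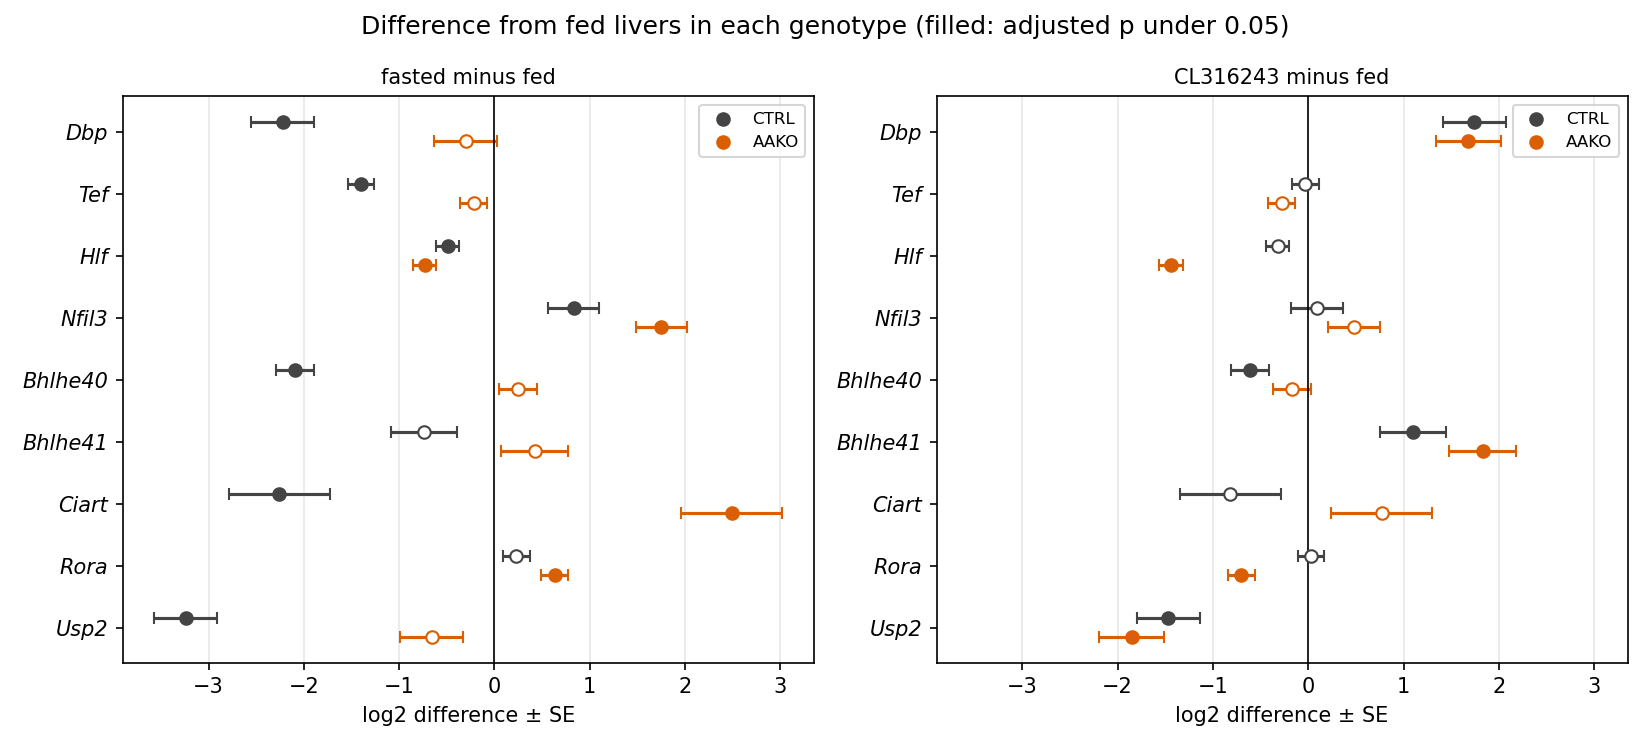
Log2 difference from fed livers (points, with the SE as bars) in CTRL and AAKO mice for the 9 genes, with fasting on the left and CL316243 on the right, filled where the adjusted p was under 0.05. With fasting, Dbp, Tef, Bhlhe40, Ciart and Usp2 lie clearly left of 0 in CTRL and to the right of that in AAKO, whereas with CL316243 the genotypes lie apart for Hlf and Rora.

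Of the DEC repressors, Bhlhe40, an E-box repressor also induced by hypoxia and hormones, was lowest in fasted controls. Its single probe lies at chr6:108616309-108616368 (plus strand). The Bhlhe40 level ran from 0.52 to 2.08 (median 1.37) in CTRL fasted livers and from 2.85 to 3.95 (median 3.54) in AAKO fasted livers. In fed livers it ran from 3.14 to 3.97 (median 3.46) in CTRL and from 2.89 to 3.56 (median 3.36) in AAKO, and after CL316243 from 2.59 to 3.16 (median 2.84) in CTRL and from 2.66 to 3.71 (median 2.86) in AAKO. The CTRL fasted group lay apart from all 5 others, whose ranges overlapped from neighbour to neighbour. Bhlhe40 was 4.40-fold higher in AAKO than in CTRL fasted livers (log2 2.14 ± 0.20, adjusted p = 1.98e-10), with 2.28 and 1.99 within the wash batches. In CTRL it fell by 2.09 ± 0.20 from fed to fasted livers (adjusted p = 3.76e-10) and lay 2.79-fold below CL316243 livers (-1.48 ± 0.20, adjusted p = 4.09e-07). In AAKO the difference from fed livers was 0.25 ± 0.20 (adjusted p = 0.284), with -0.17 and 0.66 within the wash batches, the second of which was called, and the responses differed by 2.34 ± 0.28 (adjusted p = 1.41e-07). Against CL316243 the value in AAKO was 0.42 ± 0.20 (adjusted p = 0.0681), called without AAKO fasted replicate 2 (0.53) or AAKO CL316243 replicate 4 (0.52) and, at 0.41, without the 3 arrays with high neutrophil markers, and the responses differed by 1.90 ± 0.28 (adjusted p = 4.4e-06). In CTRL, Bhlhe40 was 1.53-fold lower in CL316243 than in fed livers, which are of another experiment (log2 -0.61 ± 0.20, adjusted p = 0.0228). That call was lost within each wash batch (-0.47 and -0.75) and without CTRL fed replicate 3 or 5 or CTRL CL316243 replicate 1 or 6 (-0.57 to -0.53).

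Bhlhe41, the other DEC repressor, was near the limit of detection, and its values carry a wide error. Its brighter probe lies at chr6:145806764-145806823 (minus strand) and was well above background on 4 CTRL fed, 2 AAKO fed, 1 CTRL fasted, 5 AAKO fasted, 6 CTRL CL316243 and 6 AAKO CL316243 arrays. It passed the filter through AAKO fasted and both CL316243 groups, so in the other groups most values lie near background and sizes against them are uncertain. The Bhlhe41 level ran from -4.51 to -3.28 (median -3.44) in CTRL CL316243 and from -3.70 to -2.95 (median -3.25) in AAKO CL316243 livers. In fasted livers it ran from -6.33 to -4.65 (median -5.31) in CTRL and from -6.02 to -4.09 (median -4.62) in AAKO, and in fed livers from -5.62 to -3.93 (median -4.56) in CTRL and from -6.62 to -4.63 (median -4.94) in AAKO. In both genotypes every CL316243 array lay above every fasted array. Fasted minus CL316243 was -1.84 ± 0.35 in CTRL (adjusted p = 7.2e-05) and -1.42 ± 0.35 in AAKO (adjusted p = 0.00074), the latter not called within the first wash batch (-0.82) or by the second probe (-0.70). From fed livers Bhlhe41 rose with CL316243 by 1.1 ± 0.35 in CTRL (adjusted p = 0.0193) and 1.83 ± 0.35 in AAKO (adjusted p = 0.000122). The CTRL call was lost without CTRL fed replicate 1 or 4 (0.94 and 0.91) and within each wash batch (1.31 and 0.90), and the AAKO call within the second (1.74). The sizes depended on the background correction. After normexp correction fasted minus CL316243 was -0.35 in CTRL and -0.42 in AAKO and the rises from fed livers were 0.20 and 0.33, and in the authors' value table the same values were -0.57, -0.45, 0.38 and 0.62, all called in the same direction. The genotype difference in fasted livers, 0.69 ± 0.35, was not called (adjusted p = 0.0979), but was without CTRL fasted replicate 2 (0.86) or the 3 arrays with high neutrophil markers (0.87), and without AAKO fasted replicate 4 (0.95), which was also the lowest of its group (-6.02). It was 1.29 within the first wash batch, where it was called, and 0.10 within the second. The fed-to-fasted value in CTRL, -0.74 ± 0.35 (adjusted p = 0.0833), was called without CTRL fed replicate 1 or 4 or CTRL fasted replicate 2 (-0.93 to -0.90) and without the 3 arrays (-0.91). Its difference between genotypes, 1.16 ± 0.49 (adjusted p = 0.0666), was called without CTRL fed replicate 1 or 4, AAKO fed replicate 2, CTRL fasted replicate 2 or AAKO fasted replicate 4 (1.27 to 1.42) and without the 3 arrays (1.47).

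Ciart, a repressor of the CLOCK and BMAL1 pair whose promoter held 3 E-boxes, had the largest genotype difference of the 9 genes in the fasted state. Its brighter probe lies at chr3:95682433-95682492 (minus strand). The Ciart level ran from -4.27 to 0.54 (median -2.30) in CTRL fasted livers and from 0.78 to 1.69 (median 1.30) in AAKO fasted livers. In fed livers it ran from -0.63 to 0.91 (median 0.03) in CTRL and from -2.39 to 0.09 (median -1.24) in AAKO, and after CL316243 from -1.36 to 0.12 (median -0.73) in CTRL and from -1.79 to 0.40 (median -0.31) in AAKO. The 2 fasted groups did not overlap, although the control group spread over more than 4 log2 units (SD 1.73, n = 6), with replicate 2 at 0.54 and the other 5 arrays at -1.24 or lower. The difference was 10.6-fold (log2 3.41 ± 0.53, adjusted p = 2.78e-06), with 4.26 and 2.56 within the wash batches and 3.90 ± 0.43 without the 3 arrays with high neutrophil markers. Ciart fell by 2.26 ± 0.53 from fed to fasted livers in CTRL (adjusted p = 0.000746), a call lost within the second wash batch (-1.44). In AAKO it rose 5.62-fold (log2 2.49 ± 0.53, adjusted p = 0.000131), with every fasted array above every fed array, and the rise was 1.87 ± 0.47 without the 3 arrays. The responses differed by 4.75 ± 0.75 (adjusted p = 9.97e-06). At the second probe these values were -1.06, 1.48 and 2.54, all called, and after normexp background correction the fall in CTRL was -1.32, also called. Against CL316243, fasted livers held less Ciart in CTRL (log2 -1.45 ± 0.53, adjusted p = 0.0311) and more in AAKO (1.72 ± 0.53, adjusted p = 0.00598), and these differed by 3.17 ± 0.75 (adjusted p = 0.00148). The CTRL call did not hold at the second probe (0.08), after normexp background correction (-0.72), in the authors' value table (-1.01) or within the second wash batch (-0.68), nor without CTRL fasted replicate 3, 4 or 6 or CTRL CL316243 replicate 1, 2 or 4 (-1.41 to -1.04). The other 2 calls were lost within the second wash batch (1.05 and 1.73). Without the 3 arrays with high neutrophil markers the CTRL value was -1.94 ± 0.43, still called. In the order of means, AAKO fasted, CTRL fed, AAKO CL316243, CTRL CL316243, AAKO fed and CTRL fasted, each pair of neighbours overlapped.

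Rora, a nuclear receptor that activates through ROREs, varied least of the 9 genes over the 6 group means (by 1.34) and was highest in AAKO fasted and lowest in AAKO CL316243 livers. Its brightest probe lies at chr9:69227536-69227595 (plus strand). The Rora level ran from 5.27 to 5.81 (median 5.47) in AAKO fasted and from 4.53 to 5.41 (median 4.89) in CTRL fasted livers, and after CL316243 from 3.49 to 4.45 (median 4.21) in AAKO and from 4.47 to 4.85 (median 4.69) in CTRL. In fed livers it ran from 4.40 to 4.79 (median 4.71) in CTRL and from 4.50 to 5.12 (median 4.92) in AAKO. The fasted ranges overlapped through CTRL fasted replicate 2 (5.41), the array with high neutrophil markers, and the CL316243 ranges did not overlap, by a small gap. Rora was 1.48-fold higher in AAKO fasted livers (log2 0.57 ± 0.14, adjusted p = 0.00109) and 1.47-fold lower in AAKO CL316243 livers (-0.55 ± 0.14, adjusted p = 0.00379). Both calls were lost within the second wash batch (0.28 and -0.26) and at the third, dim probe (0.29 and -0.85). In AAKO, Rora rose by 0.63 ± 0.14 with fasting (adjusted p = 0.000236) and fell by 0.70 ± 0.14 with CL316243 (adjusted p = 0.00025), the latter not called within the second wash batch (-0.51), and in each case without overlap with fed arrays. In CTRL the same differences were 0.23 ± 0.14 (adjusted p = 0.187), called after quantile normalization (0.38) and at the second probe (0.31) and the third (1.01), and 0.03 ± 0.14 (adjusted p = 0.922). The responses to fasting differed by 0.39 ± 0.20 (adjusted p = 0.128, called at 0.50 without CTRL fasted replicate 2 and at 0.56 without the 3 arrays) and those to CL316243 by -0.73 ± 0.20 (adjusted p = 0.0145). The latter was lost within each wash batch (-0.97 and -0.40). The third probe failed the filter on dim signal. It was well above background on no AAKO fed array and gives no size against that group. In the other groups it was so on 1 CTRL fed, 4 CTRL fasted, 4 AAKO fasted, 2 CTRL CL316243 and 1 AAKO CL316243 arrays. Its other values, with the 1.01 in CTRL, are thus not exact sizes. Fasted minus CL316243 was 1.33 ± 0.14 in AAKO (adjusted p = 1.21e-09), 0.21 ± 0.14 in CTRL (adjusted p = 0.264) and differed by 1.12 ± 0.20 (adjusted p = 5.53e-05), with 1.62 and 0.54 within the wash batches, the second of which ended the call, as did the third probe (1.15).

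Usp2, the rhythmic deubiquitinase, showed the deepest fall with fasting in controls. Its brighter probe lies at chr9:43903651-43903710 (plus strand). The Usp2 level ran from 3.46 to 4.39 (median 3.99) in CTRL fed and from -0.38 to 2.42 (median 0.43) in CTRL fasted livers, and from 3.17 to 3.97 (median 3.46) in AAKO fed and from 2.56 to 3.08 (median 2.86) in AAKO fasted livers. After CL316243 it ran from 2.25 to 2.95 (median 2.32) in CTRL and from 0.66 to 2.84 (median 1.29) in AAKO. In both genotypes every fasted array and every CL316243 array lay below every fed array. In CTRL the fall with fasting was 9.46-fold (log2 -3.24 ± 0.33, adjusted p = 2.3e-09, with -3.92 and -2.57 within the wash batches). In AAKO it was -0.66 ± 0.33 (adjusted p = 0.0843), and -0.83 ± 0.32 without the 3 arrays with high neutrophil markers, where it was called. The responses differed by 2.58 ± 0.47 (adjusted p = 7.19e-05), and within the second wash batch by 1.89, which was not called. Usp2 was 4.46-fold higher in AAKO than in CTRL fasted livers, without overlap (log2 2.16 ± 0.33, adjusted p = 2.59e-06), with 2.82 and 1.5 within the wash batches. Usp2 was lower in CL316243 than in fed livers, which are of another experiment, by 2.78-fold in CTRL (log2 -1.47 ± 0.33, adjusted p = 0.0015) and by 3.60-fold in AAKO (-1.85 ± 0.34, adjusted p = 7.11e-05), and neither was called within the second wash batch (-1.47 and -1.62). The genotype difference of Usp2 after CL316243, -0.80 ± 0.34, was not called (adjusted p = 0.0817), but was without AAKO CL316243 replicate 2 (-1.05) or 3 (-0.95), the highest 2 of that group (2.84 and 2.43). It was also called without the 3 arrays with high neutrophil markers, at -0.81 ± 0.28. None of them is in the compared groups, and they act only through the wash batch term, the shared error and the adjustment. Fasted minus CL316243 was -1.77 ± 0.33 in CTRL (adjusted p = 7.83e-05) and 1.19 ± 0.34 in AAKO (adjusted p = 0.00284), and these differed by 2.96 ± 0.47 (adjusted p = 1.42e-05). All 3 calls were lost within the second wash batch (-1.1, 0.94 and 2.04).

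Where several probes read a gene, most gave the same picture. In fasted livers the probes of each gene gave the same direction of the genotype difference, as the plot of every probe shows. The 4 Tef probes gave 1.02, 0.93, 0.58 and 0.64, and the 2 Usp2 probes 2.16 and 2.13. The 2 Ciart probes differed in size, at 3.41 ± 0.53 and 1.69 ± 0.34. At the second Dbp probe (chr7:52965461-52965520, plus strand) 2 more comparisons were called: Dbp was lower in AAKO after CL316243 (log2 -0.84 ± 0.31, adjusted p = 0.0470, against -0.78 ± 0.34 and 0.0918 at the first) and lower in fasted than fed AAKO livers (-0.93 ± 0.31, adjusted p = 0.00946, against -0.30 ± 0.33 at the first). The third Tef probe (chr15:81647233-81647292, plus strand, upstream of the others) stood apart after CL316243 in CTRL, with 0.73 ± 0.19 from fed livers (adjusted p = 0.00458), where the first gave -0.03 ± 0.14. The second Ciart probe called a fall with CL316243 in CTRL (-1.14 ± 0.34, adjusted p = 0.0149), where the first gave -0.82 ± 0.53. The third Tef probe also gave smaller values from fed to fasted livers in CTRL (-0.83) and for the genotype difference of that response (0.70), both called. The second Bhlhe41 probe was well above background on no CTRL fasted array, so its genotype difference in fasted livers has no exact size.

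**Figure D4:**
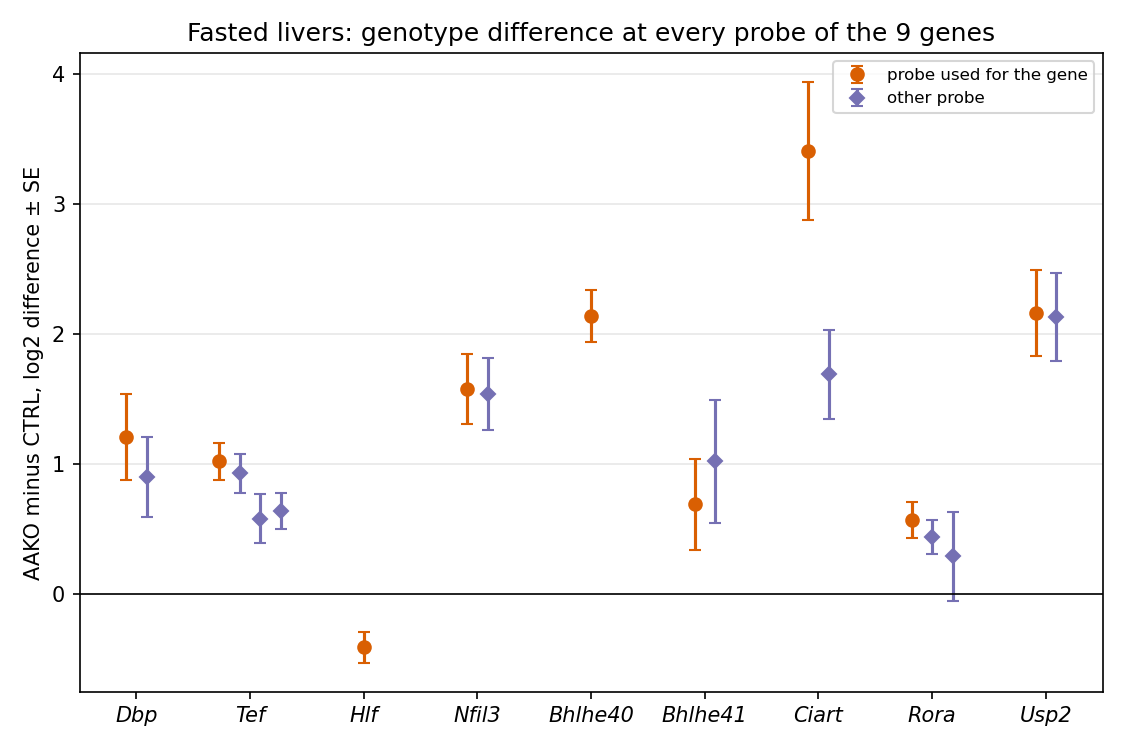
Log2 difference between AAKO and CTRL fasted livers (points, with the SE as bars) at each of the 19 probes of the 9 genes. All probes of a gene lie on the same side of 0, and the 2 Ciart probes lie furthest apart. The second Bhlhe41 probe was well above background on no CTRL fasted array, so its point is not an exact size.

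Beyond the 9 genes, 15 other clock genes were counted. In fasted livers 11 of the 15 were called between genotypes (9 higher and 2 lower in AAKO, median 0.80), where 49.2% of all genes were called. In fed livers 0 were by limma (0.0788% of all genes), and after CL316243 2 (both lower in AAKO, 24.6% of all genes). The lowest unadjusted p by limma in fed livers was that of Cry1 (0.043), and the share of all genes that low was not counted. From fed to fasted livers 9 were called in CTRL (3 up, 6 down, 43.8% of all genes) and 11 in AAKO (7 up, 4 down, 63.6% of all genes), and the responses differed for 8, all higher in AAKO (33.6% of all genes). From fed to CL316243 livers 6 were called in CTRL (2 up, 4 down, 23.1% of all genes) and 8 in AAKO (2 up, 6 down, 31.4% of all genes). Fasting against CL316243 gave 8 calls in CTRL (4 up, 4 down, 37.1% of all genes), 8 in AAKO (all higher in fasted livers, 60.0% of all genes) and 7 differences between the genotypes (all higher in AAKO, 31.8% of all genes). Per2, a repressor of CLOCK and BMAL1, was 2.93-fold higher in AAKO than in CTRL fasted livers (log2 1.55 ± 0.16, adjusted p = 2.48e-09), ranging from 1.79 to 2.52 (median 1.98) against -0.22 to 1.21 (median 0.57). Per2 also fell with fasting in AAKO, by 1.91 ± 0.16 (adjusted p = 7.91e-12), and by 3.54 ± 0.16 in CTRL (adjusted p = 2.45e-16), and the responses differed by 1.63 ± 0.23 (adjusted p = 1.91e-06). Nr1d1, which encodes the repressor REV-ERB alpha, was 4.55-fold higher in AAKO fasted livers (log2 2.18 ± 0.38, adjusted p = 1.56e-05) and rose in both genotypes with fasting (1.26 ± 0.38 in CTRL and 3.95 ± 0.38 in AAKO) and with CL316243 (2.93 ± 0.38 and 3.16 ± 0.38). Per1, another PER repressor, was 2.36-fold higher in AAKO fasted livers (log2 1.24 ± 0.28, adjusted p = 0.000397). Arntl, which encodes BMAL1, showed no called genotype difference (0.52 ± 0.28 in fasted livers, adjusted p = 0.130), rose with fasting by 1.75 ± 0.28 in CTRL and 1.87 ± 0.28 in AAKO and fell by 2.17 ± 0.28 and 2.36 ± 0.29 with CL316243. Its levels after CL316243 ran from -3.56 to -2.31 in CTRL and from -3.01 to -2.05 in AAKO, below every array of the other 4 groups.

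Genes known as targets of PAR-bZIP factors in liver were counted as a list of 8. Between genotypes 1 was called in fed livers (lower in AAKO, 0.0788% of all genes), 5 in fasted livers (3 up, 2 down, 49.2% of all genes) and 5 after CL316243 (all lower in AAKO, median -0.87, 24.6% of all genes). From fed to fasted livers 6 were called in CTRL (3 up, 3 down, 43.8% of all genes) and 5 in AAKO (3 up, 2 down, 63.6% of all genes), and the responses differed for 5 (4 higher and 1 lower in AAKO, 33.6% of all genes). With CL316243, 5 were called in CTRL (1 up, 4 down, 23.1% of all genes) and 4 in AAKO (all lower, 31.4% of all genes), and the responses differed for 4 (2 higher and 2 lower, 10.9% of all genes). Fasting against CL316243 gave 4 in CTRL (3 up, 1 down, 37.1% of all genes), 6 in AAKO (all higher, 60.0% of all genes) and 4 differences (all higher in AAKO, 31.8% of all genes). Por, the reductase that feeds electrons to cytochromes P450, was 1.64-fold higher in AAKO fasted livers (log2 0.71 ± 0.14, adjusted p = 0.000105). Nr1i3, the xenobiotic receptor CAR, was 2.67-fold lower there (-1.42 ± 0.15, adjusted p = 5.58e-09) and 3.17-fold lower in AAKO after CL316243 (-1.66 ± 0.16, adjusted p = 3.13e-09). Cyp7a1, the rate-limiting enzyme of bile acid synthesis, was 3.39-fold lower in AAKO after CL316243 (-1.76 ± 0.43, adjusted p = 0.00241), with 0.32 ± 0.42 in fasted livers (adjusted p = 0.567). Alas1, the rate-limiting enzyme of haem synthesis, was called in none of the 12 comparisons, with genotype differences of -0.11 ± 0.25, 0.25 ± 0.25 and -0.09 ± 0.25 in fed, fasted and CL316243 livers.

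The 9 genes were also compared array by array, as a description over 36 arrays that share group effects and array scaling. With group means taken out, Ciart and Usp2 had the highest correlation of the 36 pairs (r = 0.87, and 0.62 with group means kept), followed by Tef with Usp2 (0.69) and Dbp with Tef (0.65). Nfil3 ran against Hlf (-0.56) and Dbp (-0.49). In CTRL fasted livers, replicate 2 was highest for Ciart (0.54), Usp2 (2.42), Nfil3 (4.39), Rora (5.41), Bhlhe40 (2.08) and Bhlhe41 (-4.65), and replicate 3 lowest for Ciart (-4.27), Usp2 (-0.38), Bhlhe40 (0.52) and Tef (4.46), so the fasted controls differed from one another in several of these genes at once.

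**Figure D5:**
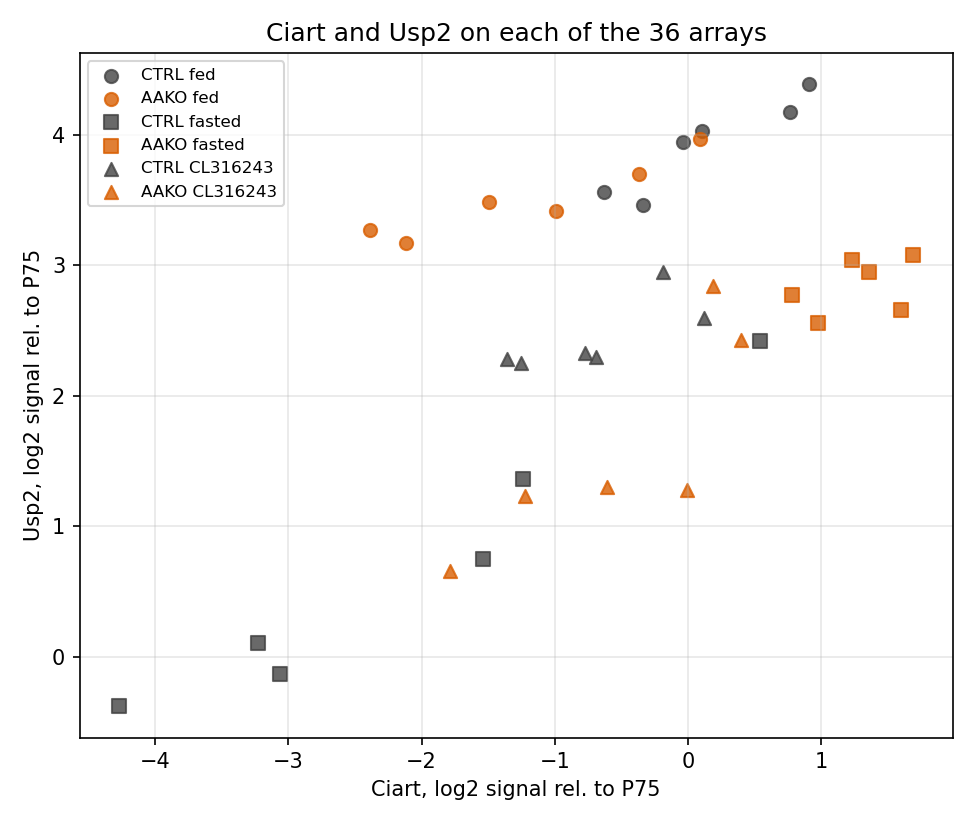
Level of Ciart (horizontal) against Usp2 (vertical), both as log2 of the signal over each array's 75th percentile, on each of the 36 arrays, by group. The CTRL fasted arrays stretch from -4.27 and -0.38 (replicate 3) to 0.54 and 2.42 (replicate 2), and the AAKO fasted arrays lie together at a Ciart level of 0.78 to 1.69.

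Over the same 36 arrays, the genes most like each of the 9 among all genes tested were found by Pearson's r, again as a description. For Usp2 the first was Gm38444 (r = 0.939), a transcript read on the opposite strand (chr9:43903196-43903255, minus strand) by a probe 396 bases from that of Usp2, followed by Per2 (0.881) and Amd2 (0.866), and the most opposed was Dph6 (-0.857). For Tef they were Per3 (0.859), Traf4 (0.856) and Ttc39c (0.845), and Gm11335 was most opposed (-0.876), as it was for Bhlhe40 (-0.873), whose nearest were Ndufaf6 (0.887), Rbm14 (0.829) and Mtss1 (0.826). For Dbp they were the expressed tag BF301431 (0.956), Narf (0.899) and Syt1 (0.889), and Lgalsl was most opposed (-0.907), as it was for Bhlhe41 (-0.820), whose nearest were Ttc39b (0.804), Vrk3 (0.801) and Ddx19b (0.783). For Hlf the nearest were Asrgl1 (0.885), 9430011C21Rik (0.866) and Mras (0.864), with Arl8b most opposed (-0.882), and for Nfil3 Fosl2 (0.884), Ccnl1 (0.878) and Mbd1 (0.877), with Abcb6 most opposed (-0.892). For Ciart they were Il6ra (0.823), AK085315 (0.822) and Il12rb1 (0.808), with Nicn1 most opposed (-0.858), and for Rora Zcchc2 (0.914), Dapk1 (0.911) and Tmcc3 (0.895), with Slc30a7 most opposed (-0.903).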

How the data were processed

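Liver RNA of 36 samples was read on 1-colour Agilent arrays with Agilent Feature Extraction 10.10.1.1, per the submitters' processing notes. The deposited files hold each spot's processed signal, an intensity on a linear scale, with 0 or 1 marks for spots well above background, outliers and saturation, per the file headers. The authors' value table holds log2 values of 36898 probes. Its columns matched their own arrays (r from 0.99881 to 0.99981) and held identical sorted values within each of the 6 groups, with medians of 6.91, 6.93, 6.97, 7.01, 6.91 and 6.88 (CTRL fed, AAKO fed, CTRL fasted, AAKO fasted, CTRL CL316243, AAKO CL316243). The method behind its scaling is not given in the sources used here.

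Outlier spots (2701, 0.127%) and control spots were left out, spots of a probe were averaged, and log2 signals were centred on the 75th percentile of each array. Of a gene's probes the brightest on average stood for it. A gene was tested if well above background on at least 5 of 6 arrays of a group. Symbols of 32994 probes were taken through RefSeq accessions. Limma 3.58.1 in R 4.3.3 fitted the 6 group means and the wash batch to 36 arrays, with Benjamini-Hochberg adjustment over 24097 genes. The script was tested on simulated data. The labels do not say that each sample is a separate mouse, and p-values measure only the spread between these samples, which may be technical.

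All 9 genes were named, with the clock and PAR-bZIP target lists as counts and 4 genes of each by values (Arntl, Nr1d1, Per1, Per2, and Cyp7a1, Alas1, Por, Nr1i3). For each of the 9, the 3 genes with the highest r and the 1 with the lowest were named. The genes and lists were chosen with earlier results of these data known. Alternatives covered background correction, normalization, the filter, the value table, the arrays in the fit, wash batch, slide, replicate number, other probes and leaving out each array. One result of the clock list is not reported here.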

Additional observations from a re-analysis of the deposited data

Results flagged for a closer look

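Of 54 groups of 6 arrays looked at, 6 for each gene, 4 held an array far from the others by Dixon's test, where chance alone gives about 1 in 20. For Dbp, CTRL fasted replicate 5 was highest at 4.04, with the nearest array at 2.73, and CTRL CL316243 replicate 5 was lowest at 6.15, with the nearest at 6.59. For Bhlhe41, AAKO fed replicate 4 was lowest at -6.62, with the nearest at -5.19, and CTRL CL316243 replicate 6 was lowest at -4.51, with the nearest at -3.66.

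The response from fed to fasted livers differed between genotypes, by limma's interaction test, for Dbp (1.93), Tef (1.17), Bhlhe40 (2.34), Ciart (4.75) and Usp2 (2.58), all higher in AAKO. The response from fed to CL316243 livers differed for Hlf (-1.12) and Rora (-0.73), both lower in AAKO. Fasting against CL316243 differed for Dbp (1.99), Tef (1.43), Hlf (0.89), Bhlhe40 (1.90), Ciart (3.17), Rora (1.12) and Usp2 (2.96), all higher in AAKO.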

How the results depend on the processing

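Of 108 values, 9 genes in 12 comparisons, 60 were called, 28 of these stayed called with the same sign under every alternative run, and 1 was reversed under any. That one was Ciart, fasted against CL316243 in CTRL, which was 0.08 at the second probe, and Tef, from fed to CL316243 in CTRL, changed from an uncalled -0.03 to 0.73 at the third probe. The cause was not tested. With the slide as a random block 108 of 108 values kept their sign and call, and 103 of 108 did after quantile normalization, after normexp correction or in the authors' value table. Leaving out 1 array kept 1558 of 1620, lost 22 calls, gained 24 and reversed 0.

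Within a single wash batch, with fewer arrays, all 60 called values kept their sign, 28 were called in both batches and 7 in neither. Within the first batch 2 genes were called between genotypes after CL316243 (2968 of all 24097 genes), 1 from fed to CL316243 in CTRL (2090 of all) and 1 for the genotype difference of that response (459 of all). Within the second these counts were 1, 1 and 0 (1514, 1614 and 484 of all genes). There 4 were called for fasting against CL316243 in AAKO (10969 of all), 2 for fed to CL316243 in AAKO (2274 of all) and 2 for the genotype difference of fasting against CL316243 (3038 of all). For the genotype difference from fed to fasted livers, leaving out 1 array gave 5 to 8 calls, with 8 without CTRL fasted replicate 2, and leaving out the 3 arrays with high neutrophil markers, chosen after seeing the data, gave 8.

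Samples with the same replicate number did not deviate together (median r 0 over 90 pairs, from -0.30 to 0.36), so the numbers do not pair them. With the replicate number as a block, 106 of 108 values kept their call, and Bhlhe41 gained a call from fed to fasted livers in CTRL (-0.74) and for the genotype difference of that response (1.16). Bhlhe41 is limited by its signal over background.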
